A study of Mus musculus with 2 samples.

Results

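The keratin and claudin genes were followed in the embryonic mouse heart, as every protein-coding gene whose symbol is Krt or Cldn followed by a number and at most a single letter. The rule found 78 of the 21474 protein-coding genes, of which 53 were keratins and 25 were claudins. The data were RNA-seq of heart tissue of strain B6NCrl at embryonic day 15.5, with both sexes mixed, in 2 libraries that form 1 group. Replicate 1 was a pool of 78 embryos and replicate 2 a separate pool of 62 embryos, so the spread is between pools and not between animals. No treatment or genotype was compared. With 2 libraries the smallest p that an exact test by flipping signs can give is 0.5, so no p-value is given. In bulk tissue, fewer cells of a type and less RNA per cell cannot be told apart.

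Keratins build the intermediate filaments of epithelial cells, always as a type I keratin paired with a type II keratin. Single-layered (simple) epithelia and mesothelium use Krt8 and Krt18 with Krt7 and Krt19, while the basal cells of layered (stratified) epithelia and of the airway use Krt5 with Krt14, Krt15 or Krt17. Claudins are membrane proteins that form the strands of tight junctions and set which ions pass between cells. The filaments of heart muscle cells are made of desmin rather than of keratins. The heart's outer covering, the epicardium, is a mesothelium, and Cldn5 is the main claudin of endothelium.

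Each library held about the same number of reads, with 41883313 expected counts in replicate 1 and 39697992 in replicate 2. The tissue label was borne out by 7 of 7 heart muscle markers at 1 TPM (TPM is the authors' per-length level, scaled to the same total in each library) or more in both libraries, with a summed level of 27918 TPM in replicate 1 and 25597 TPM in replicate 2. All 11 matched mesothelium and epicardium markers and all 10 endothelium markers were also at 1 TPM or more in both. Replicate 2 stood apart in other tissues' genes. Thymocyte markers summed to 13.0 TPM in replicate 1 and 130 TPM in replicate 2, and hepatocyte markers to 51.6 TPM and 224 TPM. Each value below is therefore given per library.

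Most of the family was silent or nearly so. At 1 TPM or more in both libraries stood 21 of the 78 members (26.9%), against 58.2% of all protein-coding genes. These were 11 of 53 keratins and 10 of 25 claudins. Another 4 members reached 1 TPM in a single library, namely Krt4, Cldn4 and Cldn13 in replicate 2 and Krt1 in replicate 1. The other 53 were below 1 TPM in both libraries, and 18 of them (12 keratins and 6 claudins) had no count at all. A floor of 3 counts, which covers counting error only, placed those 18 at no more than 0.193 TPM in either library. That is the limit of the shortest of them, Cldn34a. The authors' upper bounds of TPM were higher for some of the 18 and reached 0.421 TPM.

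**Figure D1:**
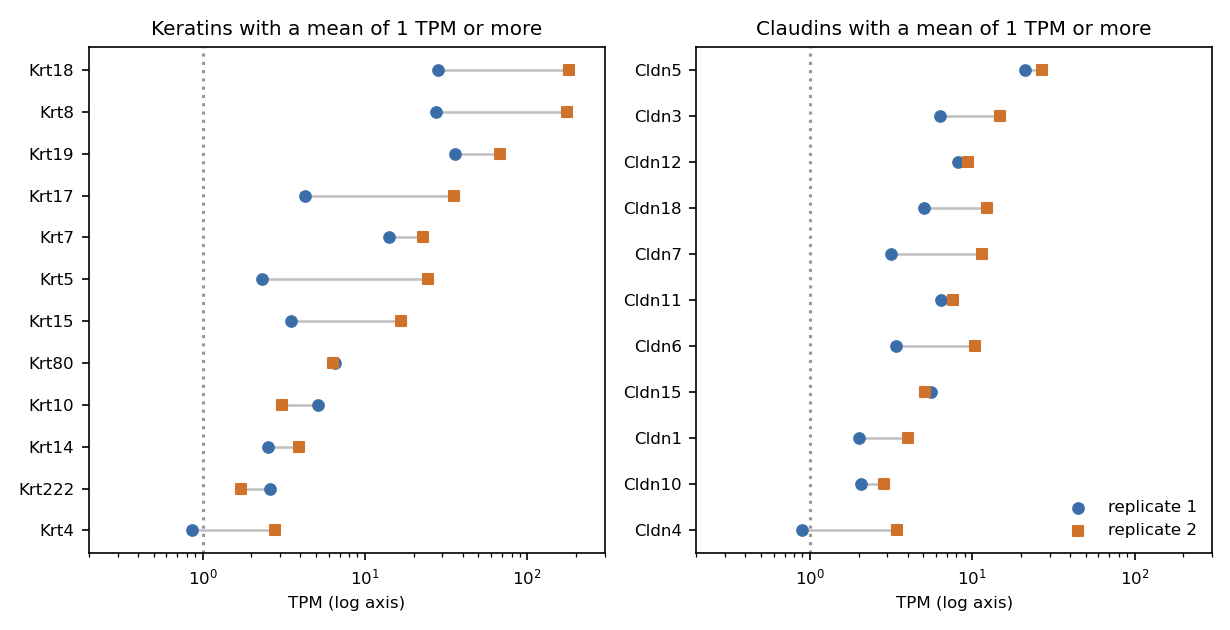
Level in TPM (log axis) of the 12 keratins and 11 claudins with a mean of 1 TPM or more, in replicate 1 (circles) and replicate 2 (squares), with the dotted line at 1 TPM. Krt8 and Krt18 lie far apart between the libraries while Cldn5, Cldn11, Cldn12 and Krt80 lie close together.

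The 53 keratins sit in a pair of gene clusters. On mm10, 27 type I keratins lie on chromosome 11 over 1037 kb from 99232761 to 100269871, and 6 of them were detected. Another 26 lie on chromosome 15 over 685 kb from 101347444 to 102032027, namely all 25 type II keratins and Krt18, and 5 of them were detected. Krt18 is the type I gene outside its own cluster. It lies at 102028180 to 102032027 on the plus strand, 23.7 kb from its partner Krt8 at 101996698 to 102004482 on the minus strand, with no protein-coding gene between them.

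The start regions of 7 members are shown because the levels below turn on these genes, as the simple pair Krt8 and Krt18, the basal Krt5, the suprabasal Krt10, the endothelial Cldn5 and the neighbouring epithelial Cldn3 and Cldn4. Each run is 100 bases of RefSeq sequence (build GRCm38.p6), written 5′ to 3′ on the gene's strand and ending just before the gene's RefSeq start. For Krt8 and Krt18 the run ends before the GENCODE start, which lies upstream of the RefSeq start. Capitals mark TATAA (the TATA box core), CCAAT and GGGCGG (a GC box) on either strand.
Krt8 (chr15:102004483-102004582, minus strand): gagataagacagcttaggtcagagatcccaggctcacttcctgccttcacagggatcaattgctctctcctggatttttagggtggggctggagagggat
Krt18 (chr15:102028080-102028179, plus strand): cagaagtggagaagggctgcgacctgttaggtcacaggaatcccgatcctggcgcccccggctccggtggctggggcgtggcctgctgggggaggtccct
Krt5 (chr15:101712906-101713005, minus strand): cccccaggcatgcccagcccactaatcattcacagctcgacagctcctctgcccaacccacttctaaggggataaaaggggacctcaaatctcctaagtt
Krt10 (chr11:99389365-99389464, minus strand): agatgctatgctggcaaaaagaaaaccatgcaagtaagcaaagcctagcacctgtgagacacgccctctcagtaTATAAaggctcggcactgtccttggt
Cldn5 (chr16:18776747-18776846, plus strand): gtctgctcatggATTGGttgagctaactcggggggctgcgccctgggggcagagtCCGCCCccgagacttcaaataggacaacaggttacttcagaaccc
Cldn3 (chr5:134986114-134986213, plus strand): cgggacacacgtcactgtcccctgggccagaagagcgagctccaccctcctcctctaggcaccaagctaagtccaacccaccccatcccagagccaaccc
Cldn4 (chr5:134946935-134947034, minus strand): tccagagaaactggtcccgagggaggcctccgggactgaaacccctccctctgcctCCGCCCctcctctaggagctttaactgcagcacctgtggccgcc
Krt10 holds TATAA 26 to 22 bases before its start. Cldn5 and Cldn4 each hold GGGCGG on the other strand, and Cldn5 also holds CCAAT. In the other 4 runs none of these letters occurs.

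The motifs were also counted over all members found in the RefSeq promoter table, which held 57 of the 78 genes with 66 promoters. TATAA occurred in the 50 bases before the start in 21 of 37 keratin promoters (56.8%) and in 1 of 29 claudin promoters (3.45%). Over all 32851 promoters of the table the share was 6.36%. In the 100 bases before the start the TATAA shares were 56.8% for keratins, 10.3% for claudins and 10.2% for all promoters. GGGCGG in those 100 bases was held by 2 of 37 keratin promoters (5.41%), 10 of 29 claudin promoters (34.5%) and 24.7% of all promoters. CCAAT in those 100 bases was held by 10.8% of keratin and 13.8% of claudin promoters, and by 18.9% of all. Krt18 holds TATAA 19 to 15 bases before its RefSeq start, a stretch inside the GENCODE exon that is not printed here. Each motif was searched and counted on its own, and a match is a description of the sequence only.

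Simple epithelial keratins made up most of the keratin RNA. The 5 genes of that list summed to 106 TPM in replicate 1 and 449 TPM in replicate 2, which was 77.4% and 82.1% of all keratin TPM. The 18 stratified keratins summed to 21.1 TPM and 88.0 TPM. Simple over stratified was thus 4.98-fold in replicate 1 and 5.09-fold in replicate 2, with a log2 ratio of 2.33 ± 0.02 (SD, n = 2). Both lists were more than 4-fold higher in replicate 2, by 4.25-fold for the simple and 4.17-fold for the stratified keratins, so their balance stayed close while their levels did not.

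Krt18, the type I keratin of simple epithelia, stood at 28.1 TPM in replicate 1 and 180 TPM in replicate 2. Its type II partner Krt8 was at 27.3 TPM and 177 TPM. Krt8 over Krt18 was therefore 0.969-fold in replicate 1 and 0.980-fold in replicate 2, a log2 ratio of -0.04 ± 0.01 (SD, n = 2), and the 2 genes of the pair were near equal in each library. Scaled counts (expected counts divided by edgeR's TMM library factor) were 5.45-fold higher in replicate 2 for Krt18, with a 95% counting interval of 5.12 to 5.80. For Krt8 they were 5.51-fold higher, with an interval of 5.21 to 5.82. Such an interval covers counting error only, and a ratio of 1 pool to another has no replicate check.

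The other simple keratins did not follow that ratio. Krt19, a type I keratin of ducts and mesothelium, was the highest of all 78 members in replicate 1 at 35.6 TPM and was at 68.0 TPM in replicate 2. Krt7, a type II keratin of ducts and mesothelium, was at 14.2 TPM and 22.8 TPM. Their scaled counts were 1.54-fold (1.44 to 1.65) and 1.47-fold (1.35 to 1.59) higher in replicate 2, and neither interval reaches those of Krt8 and Krt18. Krt19 over Krt7 was 2.52-fold in replicate 1 and 2.98-fold in replicate 2. As a result the make-up of the keratin RNA differed, with Krt8 and Krt18 at 40.6% of keratin TPM in replicate 1 and 65.4% in replicate 2, and Krt19 at 26.1% and 12.5%. Krt20, a keratin of gut and urinary lining, stayed below 1 TPM at 0.35 TPM and 0.57 TPM.

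Part of the Krt19 and Krt7 level lay in transcripts not annotated as coding. The protein-coding transcript of Krt19 held 68.7% of its TPM in replicate 1 and 60.8% in replicate 2. For Krt7 the coding share was 80.7% and 80.2%, and a short coding transcript of 642 bases held 42.4% and 37.0% of the gene's TPM. Krt8 and Krt18 have a single transcript each in the files.

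Of the keratin lists, the 4 airway basal keratins had the highest ratio of summed TPM between the libraries, with 12.6 TPM in replicate 1 and 80.0 TPM in replicate 2, a 6.35-fold difference. Krt5, the type II keratin of basal cells, was at 2.33 TPM in replicate 1 and 24.3 TPM in replicate 2. Krt17, a type I keratin of skin appendages and of airway and other basal cells, was at 4.26 TPM and 35.2 TPM. Krt15, a type I keratin of basal layers, was at 3.49 TPM and 16.6 TPM. All 3 were in the lower part of the detected keratins in replicate 1 and well above 10 TPM in replicate 2. Scaled counts were 8.85-fold (7.52 to 10.5) higher in replicate 2 for Krt5, 7.0-fold (6.04 to 8.15) for Krt17 and 4.29-fold (3.63 to 5.10) for Krt15.

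Krt14, the classical type I partner of Krt5, did not share that pattern. It was at 2.52 TPM in replicate 1 and 3.94 TPM in replicate 2, with scaled counts 1.28-fold higher and an interval of 0.992 to 1.67 that includes equality. Krt5 over Krt14 was thus 0.925-fold in replicate 1 and 6.17-fold in replicate 2. Only 45.2% and 37.8% of the Krt14 TPM lay in its protein-coding transcript. Reads of Krt5, Krt14, Krt6a and Krt16 were in part shared with similar genes, since these 4 members have counts more than 0.005 from a whole number, and their levels are uncertain to that extent.

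The keratins of differentiating layers were low. Krt10, the type I keratin of suprabasal epidermis, was at 5.11 TPM in replicate 1 and 3.08 TPM in replicate 2. Its type II partner Krt1 was at 1.08 TPM and 0.29 TPM, which is 82 and 20 counts. Among the members with at least 10 counts in both libraries, Krt1 was the only one with scaled counts over 2-fold lower in replicate 2, being 4.31-fold higher in replicate 1. Krt10 was 1.96-fold higher there, just inside that limit. Krt4, a type II keratin of oral and oesophageal lining, went the other way with 0.86 TPM and 2.78 TPM and a 2.74-fold (2.01 to 3.77) higher value in replicate 2.

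Outside both lists, Krt80 was at 6.56 TPM and 6.40 TPM and Krt222 at 2.59 TPM and 1.73 TPM. Scaled counts of Krt80 were 1.21-fold higher in replicate 1 and those of Krt222 were 1.67-fold higher there. None of the 23 matched keratins of hair and root sheath reached 1 TPM in either library, 8 of them had no count in both, and the list summed to 0.29 TPM and 1.23 TPM. Type I over type II keratins was 1.55-fold in replicate 1 and 1.32-fold in replicate 2 in TPM.

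**Figure D2:**
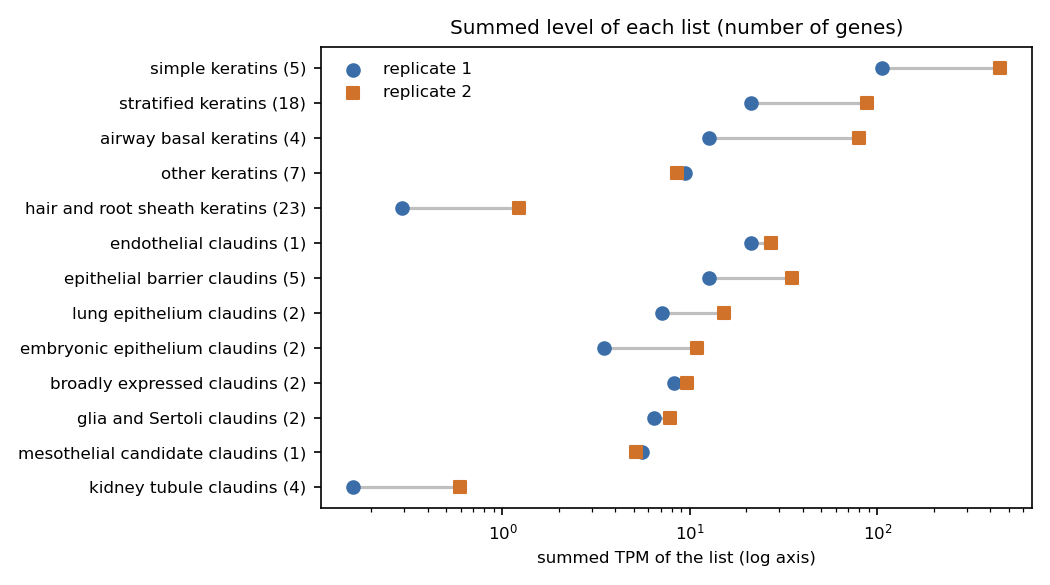
Summed TPM (log axis) of each keratin and claudin list in replicate 1 (circles) and replicate 2 (squares), with the number of genes in parentheses and the airway basal keratins also counted among the stratified. The simple keratins lead in both libraries at 106 and 449 TPM, and the single endothelial claudin moves least among the lists above 20 TPM.

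Among claudins, the endothelial Cldn5 was the highest in both libraries. It was at 21.2 TPM in replicate 1 and 27.0 TPM in replicate 2, or 906 and 1029 counts, and lies on chromosome 16 from 18776847 to 18778262. Its scaled counts were 1.08-fold higher in replicate 2, with an interval of 0.987 to 1.18 that includes equality. The 10 endothelium markers had a median log2 ratio of -0.02, and none of them was past 2-fold. Cldn5 made up 32.3% of all claudin TPM in replicate 1 and 23.7% in replicate 2.

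The 5 epithelial barrier claudins (Cldn1, Cldn3, Cldn4, Cldn7 and Cldn8) summed to 12.6 TPM in replicate 1 and 34.9 TPM in replicate 2. Cldn5 over that sum was 1.67-fold in replicate 1 and 0.774-fold in replicate 2, with a log2 ratio of 0.19 ± 0.79 (SD, n = 2), so which was higher differed between the libraries. All 5 had higher scaled counts in replicate 2. Cldn3 was at 6.35 TPM and 14.9 TPM and was 1.99-fold (1.71 to 2.34) higher. Cldn7 was at 3.16 TPM and 11.5 TPM and was 3.54-fold (2.79 to 4.52) higher. Cldn4, which lies 39.3 kb from Cldn3 on chromosome 5, was at 0.90 TPM and 3.45 TPM and was 3.25-fold (2.36 to 4.55) higher. These 3 are the common claudins of simple epithelia, and Cldn3 exceeded Cldn4 by 7.06-fold in replicate 1 and 4.32-fold in replicate 2. Cldn1, needed for the barrier of the epidermis, was at 2.00 TPM and 4.03 TPM and was 1.72-fold higher. Cldn8, a claudin of the kidney's distal tubule, was at 0.23 TPM and 0.99 TPM, or 17 and 65 counts, and was 3.64-fold (2.11 to 6.62) higher.

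Of the 2 lung epithelium claudins neither was past 2-fold between the libraries, while Cldn6 of the embryonic epithelium claudins was. Cldn18, a claudin of lung alveoli and stomach, was at 5.04 TPM in replicate 1 and 12.4 TPM in replicate 2 and was 1.87-fold (1.64 to 2.13) higher in scaled counts. The short transcript Cldn18-204 held 68.4% and 71.0% of its TPM. Cldn10, which forms ion-selective pores, was at 2.08 TPM and 2.86 TPM and was 1.60-fold (1.24 to 2.07) higher. Under spike-in scaling the log2 ratio was 0.07 for Cldn18, -0.16 for Cldn10 and 0.53 for Cldn6, so none of them was then past 2-fold. By TPM the main transcript of Cldn10 differed, with Cldn10-201 at 55.7% of its TPM in replicate 1 and at 0 in replicate 2. In expected counts Cldn10-203 led in both libraries, with 60.59 against 39.41 for Cldn10-201 in replicate 1 and 168 against 0 in replicate 2. The split in replicate 1 was estimated from few reads and is uncertain. Cldn6, a claudin of embryonic epithelia, was at 3.41 TPM and 10.4 TPM and was 2.58-fold (2.14 to 3.12) higher. Its neighbour Cldn9 lies 138 bases away and had 3 and 22 counts. Cldn13, a claudin without a human counterpart, had 11 and 44 counts and was 3.80-fold (1.93 to 8.17) higher.

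The remaining detected claudins differed little between the libraries. Cldn12, a broadly expressed claudin, was at 8.13 TPM and 9.40 TPM. Cldn11, the claudin of myelin and of Sertoli cells, was at 6.45 TPM and 7.63 TPM. Their scaled counts were 0.998-fold and 1.00-fold those of replicate 1. Cldn15, a cation pore of the gut listed as a mesothelial candidate, was at 5.56 TPM and 5.15 TPM and was 1.30-fold higher in replicate 1 in scaled counts. The 4 kidney tubule claudins summed to 0.16 TPM and 0.59 TPM, all of it from Cldn2.

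Across the family, 31 members had at least 10 counts in both libraries. Of these, 11 (35.5%) were 2-fold or more higher in replicate 2, against 6.33% of the 14711 protein-coding genes with that many counts. They were the keratins Krt5, Krt17, Krt8, Krt18, Krt15 and Krt4 and the claudins Cldn13, Cldn8, Cldn7, Cldn4 and Cldn6. A single member, Krt1, was 2-fold or more lower (3.23%, against 0.421% of protein-coding genes), and 19 were within 2-fold. The median log2 ratio was 0.63 over the 31 members and -0.01 over the protein-coding genes. Scaling by the added spike-in RNA in place of TMM shifted every log2 ratio by -0.83, which put the protein-coding median at -0.84. With it, 7 members were 2-fold higher and 7 lower, with 8 of the 12 still past 2-fold and all 12 in the same direction. The share of all protein-coding genes past 2-fold was not counted under that scaling, so its 7 lower members cannot be called particular to the family. The other 47 members had fewer than 10 counts in at least 1 library, and of them 10 had counts in replicate 2 alone and 2 in replicate 1 alone.

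**Figure D3:**
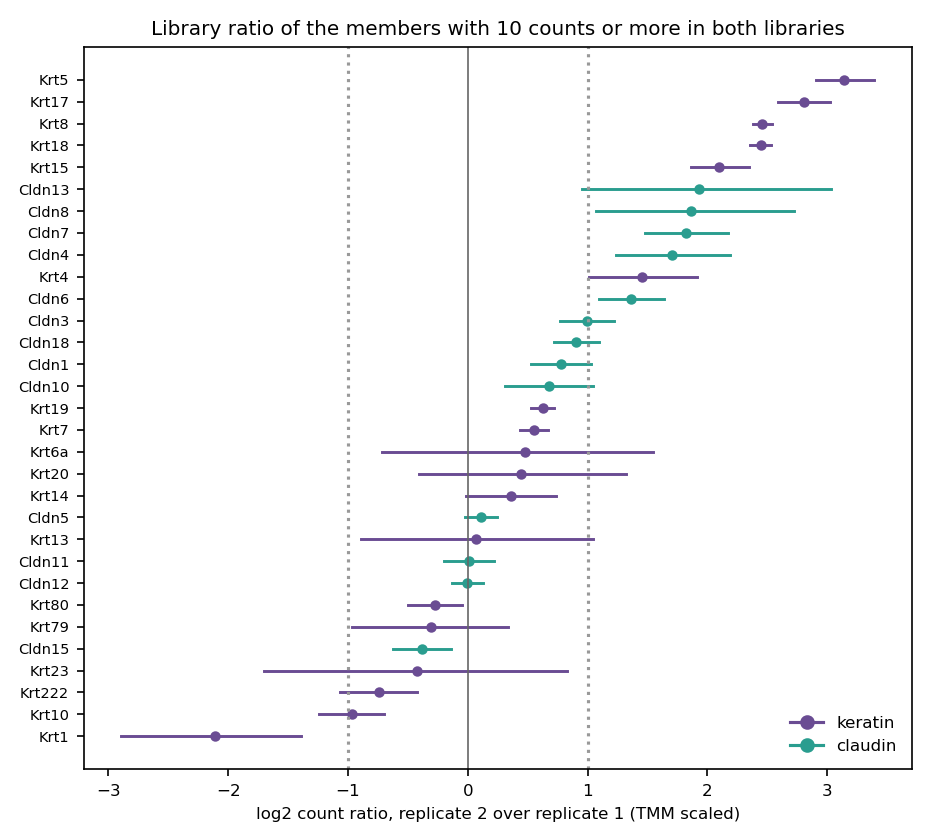
Log2 ratio of scaled counts, replicate 2 over replicate 1, of the 31 members with 10 counts or more in both libraries, with bars for the 95% counting interval and dotted lines at 2-fold. The ratios run from -2.11 for Krt1 to 3.14 for Krt5, and Cldn5 lies at 0.11.

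Markers of other tissues were set beside these ratios, and their part in the ratios was not tested. The 11 mesothelium and epicardium markers summed to 198 TPM in replicate 1 and 226 TPM in replicate 2, with a median log2 ratio of -0.10 and none past 2-fold. Upk3b, a uroplakin listed as a mesothelial marker, was at 34.7 TPM and 45.2 TPM. The mesothelial list, with log2 ratios from -0.80 to 0.20, thus differed far less than Krt8 and Krt18. Krt7 at 0.55 and Krt19 at 0.63 lay above that range, and Cldn15 at -0.38 lay inside it. The lower end was set by Dmkn alone, which had 66 and 40 counts. The next lowest marker was Tbx18 at -0.32, so without Dmkn the range would not hold Cldn15. Members of other lists, such as Cldn5 and Cldn12, lay inside the range with or without Dmkn.

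Lung epithelium markers summed to 177 TPM in replicate 1 and 458 TPM in replicate 2, with 9 of 11 at 1 TPM or more in both and none at 0. Of the 9 with enough counts 6 were past 2-fold higher, and the median log2 ratio was 1.39. Without Cdh1 and Epcam, which also stand among the epithelial regulators below, 4 of 7 were past 2-fold higher, with a median of 1.35. Sftpc, surfactant protein C of alveolar cells, was at 118 TPM and 276 TPM, and Nkx2-1, a lung and thyroid transcription factor, at 1.74 TPM and 5.28 TPM. Markers of lung epithelium were thus detected in both heart pools. The lung claudins Cldn18 and Cldn10 had log2 ratios of 0.90 and 0.68, and Sftpc had 0.99, all below the list median of 1.39. The lung list ran from 0.32 to 2.04, so both claudins lay inside its range. The 5 ciliated airway markers summed to 26.4 TPM and 39.9 TPM, none at 0, and 2 of 4 were past 2-fold higher.

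Thymic epithelium markers summed to 184 TPM and 376 TPM, most of it from the widely expressed protease Ctsl at 173 TPM and 247 TPM. None of the 5 was at 0, and the other 4 were all past 2-fold higher. Foxn1, the transcription factor that defines thymic epithelium, was at 0.64 TPM and 7.34 TPM and was 9.70-fold higher, and Psmb11, a proteasome subunit of cortical thymic epithelium, was at 1.38 TPM and 14.4 TPM and was 8.83-fold higher. The median log2 ratio was 3.28 for this list and 3.23 for the thymocyte list, with 6 of 6 past 2-fold and none of its 8 at 0. Of the airway basal keratins, Krt5 had 3.14, Krt17 had 2.81, Krt15 had 2.10 and Krt14 had 0.36.

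Stratified epithelium markers summed to 178 TPM and 180 TPM, most of it from Perp, a desmosome-associated protein, at 163 TPM and 136 TPM. The other 7 summed to 15.2 TPM and 44.2 TPM. Over the 6 with enough counts the median log2 ratio was 0.33, and 2 were past 2-fold higher. These were Trp63 and Sfn. Trp63, the transcription factor of basal cells, was at 1.04 TPM and 8.06 TPM and was 7.37-fold higher, while Sfn, a 14-3-3 protein of epithelia, was at 2.52 TPM and 20.7 TPM. The late differentiation gene Ivl was at 0.02 TPM and 0.08 TPM and Lor at 0.82 TPM and 0.64 TPM, and Dsg3 had no count in replicate 1. Hepatocyte markers had a median log2 ratio of 2.57 with 8 of 8 past 2-fold higher and none at 0, and Alb, serum albumin, was at 3.14 TPM and 23.2 TPM.

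**Figure D4:**
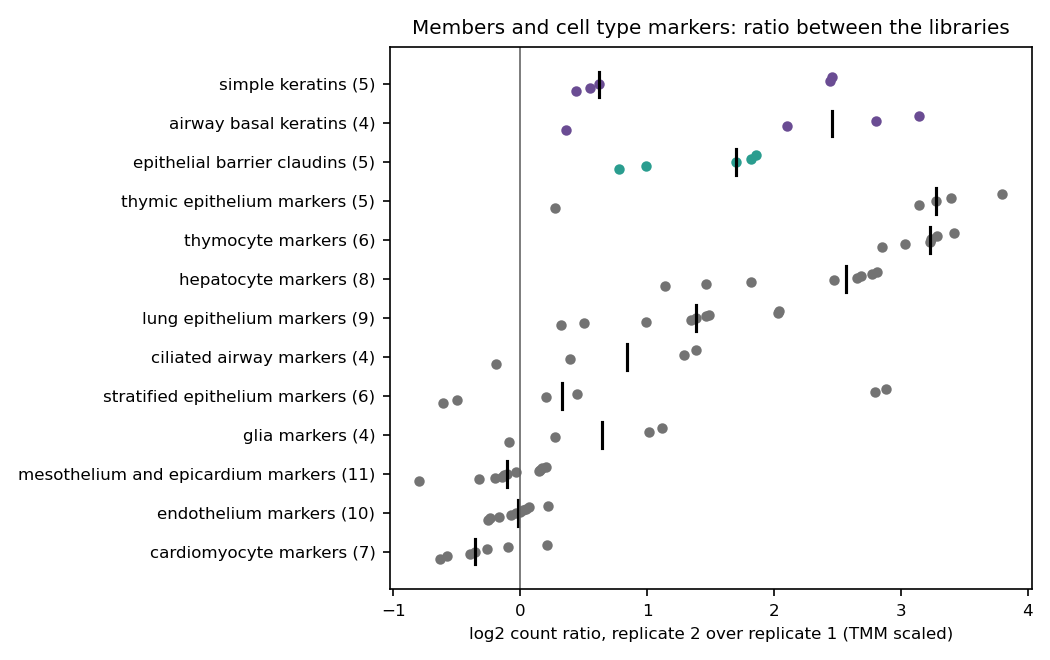
Log2 ratio of scaled counts, replicate 2 over replicate 1, for each tested gene of 3 member lists and of the marker lists, with a black bar at the list median and the number of genes in parentheses. Mesothelium, endothelium and heart muscle markers centre near or below 0, lung markers near 1.39, and thymic markers near 3.28.

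The genes that keratins and claudins work with were described from lists of partners. Tight junction partners were nearly all present, with 18 of 19 at 1 TPM or more in both libraries, against 58.2% of all protein-coding genes. Their median log2 ratio was -0.02. Esam, an endothelial adhesion protein, was the highest at 63.7 TPM and 73.6 TPM, and Marveld3 the lowest at 0.38 TPM and 1.13 TPM. Of the 19, 2 were past 2-fold higher in replicate 2, namely Marveld3 and the epithelial junction protein Cgn. That is near the 6.33% of protein-coding genes with enough counts, and none of the 19 was past 2-fold lower.

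Desmosome genes and keratin linkers were led by those that heart muscle also uses. Of the 18, 11 were at 1 TPM or more in both, which is near the 58.2% of all protein-coding genes. Jup, the plaque protein plakoglobin, was the highest at 96.9 TPM and 115 TPM. Dsc1 had no count. Past 2-fold higher in replicate 2 were 3 of 15, against 6.33% of protein-coding genes with enough counts. All 3 were desmosomal genes of epithelia, namely Pkp1, Pkp3 and Dsc3. Pkp3 was at 0.92 TPM and 5.77 TPM.

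Among other intermediate filament genes, Vim and Des were each above every single keratin in both libraries. Vim, the filament of mesenchymal cells, was at 774 TPM and 719 TPM, and Des, the filament of muscle, was at 346 TPM and 307 TPM. In replicate 2 the sum of all keratins, 546 TPM, was above Des, and in replicate 1, at 136 TPM, it was below it. Of the 13 epithelial regulators and adhesion genes, 8 of the 12 with enough counts were past 2-fold higher in replicate 2. The share over protein-coding genes was 6.33%, and the median log2 ratio of the 12 was 1.67. Epcam, an epithelial adhesion protein, was at 6.14 TPM and 29.6 TPM and was 4.09-fold higher, and Cdh1, epithelial cadherin, was at 2.96 TPM and 14.3 TPM and was 4.11-fold higher.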

How the data were processed

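RNA-seq of 2 heart libraries was used, each from 10 ng of RNA longer than 200 nt, per the labels. The deposited expected counts are the authors' estimated reads per gene on mm10 with GENCODE M4, per the file headers. The deposited TPM and FPKM are the authors' per-length levels, with a posterior mean TPM beside them, and the deposited percent gives each transcript's share of its gene's TPM. The sources used here name no aligner or quantifier and do not say whether counting used strand. Exons of Krt10, Krt12, Krt32, Cldn3, Cldn19 and Cldn22 overlap another gene of the files on the opposite strand. Those of Krt5, Krt6a, Krt6b, Krt7, Krt8, Krt75, Krt76, Krt80 and Krt90 overlap a GENCODE M21 gene outside the files. Reads of such partners cannot be told apart.

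Of 43346 Ensembl genes, 42462 were matched by identifier to GENCODE M21 (same build) for symbols, biotypes and positions. Levels are TPM, with a pseudocount of 0.1 in log ratios of list sums. Ratios between the libraries used expected counts scaled by TMM (edgeR 4.0.16, R 4.3.3, counts rounded to whole numbers for the factors), with at least 10 counts in both and a limit of 2-fold. Intervals are exact 95% conditional binomial (Clopper-Pearson) intervals; they and the floor of 3 counts cover counting error only. DESeq2 1.42.0 size factors, total counts and spike-in counts were alternatives. Named were members with a mean of 1 TPM or more, 18 set members whatever their level, and members past 2-fold. For partner and marker lists the plan was to name the highest, lowest and needed genes. That plan was not kept for every list, so the genes named from them are a choice. Upk3b and Alb, for example, are not the highest of their lists. Cldn2, Cldn9, Krt6a and Krt16 were named after their values were seen. Members and lists were chosen with earlier results of these data known. Matched by no identifier were the listed Krt74, Krt85, Cldn25 and Muc16. Promoters are from RefSeq (GRCm38.p6), with motifs searched on both strands. Krt15, Krt17, Krt19, Krt222, Krt4 and Krt80 have no entry there.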

Additional observations from a re-analysis of the deposited data

How the results depend on the processing

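The number of members detected was 21 in the main setting and 22 in replicate 1 or 24 in replicate 2 taken alone, and it lay between 20 and 31 in every setting tried. Simple over stratified keratins had a log2 ratio of 2.33, and of 2.30 with the posterior mean TPM or a pseudocount of 1 TPM, 2.26 over protein-coding transcripts alone and 2.13 in expected counts without length, against 2.31 to 2.35 with either library left out. Type I over type II was 0.51, was 0.076 in expected counts, which are not divided by length, and 0.40 to 0.63 with either library left out. Cldn5 over the epithelial barrier claudins was 0.19 and ran from -0.37 without replicate 1 to 0.74 without replicate 2, so its direction rests on the library.

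The 11 members higher in replicate 2 became 7 with spike-in scaling, 6 with at least 100 counts in both libraries and 32 with no minimum. The 1 lower member became 7 with spike-in scaling, 2 with 10 counts in the higher library alone, 0 with 100 counts, 7 with no minimum and 3 at 1.5-fold. A shift of -0.83 applied to every gene under spike-in scaling, the 1.5-fold setting changed the limit for the same 31 members, and the count minimums changed how many members were compared. All 12 kept their direction under total counts, DESeq2 size factors, spike-in counts and TPM. No paired analysis was possible because there is 1 group. Members under 10 counts are limited by depth.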

Other observations

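Of the 9 other intermediate filament genes, 8 had at least 10 counts in both libraries. Of these 8, 3 were past 2-fold higher in replicate 2, all filament genes of neurons, against 6.33% of protein-coding genes. Gfap fell under the minimum with 7 and 27 counts, and its scaled counts were 3.67-fold (1.56 to 9.98) higher in replicate 2. Prph, the filament protein of peripheral neurons, was at 0.61 TPM in replicate 1 and 9.69 TPM in replicate 2 and its scaled counts were 13.6-fold higher in replicate 2. Nefl and Nefm, neurofilament subunits, were at 1.5 TPM and 1.33 TPM in replicate 1 and at 8.93 TPM and 10.4 TPM in replicate 2, which was 5.06-fold and 6.58-fold higher in scaled counts. Sox10, a glia marker, was at 0.38 TPM and 0.96 TPM. Scaled counts of Cldn11, a claudin of myelin, were 1.00-fold those of replicate 1.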
